A study of Arabidopsis thaliana with 8 samples.

Results

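The response of Arabidopsis thaliana shoots to 2,5-dimethylpyrazine (2,5-D) was examined in 4 shoot libraries of a series of 8, the other 4 being from roots. All plants were wild type of the ecotype Col-0, the common laboratory accession. They grew in I-plates, dishes with a dividing wall, and 2,5-D at 100 µM was put on a paper disc. Control plants received sterilized water on the disc. The groups used here, shoot 2,5-D, shoot water, root 2,5-D and root water, had 2 libraries each. The labels give the treatment as 24 hours and also speak of 14 days of growth in the plates, so they do not settle how long the contact lasted. Nothing says that libraries of a group came from separately grown plants, so the p-values reflect only the spread among these libraries, possibly a technical one. The series asks about genes that move nitrate and ammonium, and these are described below among the other gene groups.

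Pyrazines are small nitrogen-containing ring compounds that many bacteria release into the air, and some microbial volatiles are known to alter plant growth and defence without contact. Plants sense microbes with receptor kinases at the cell surface and with intracellular receptors of the nucleotide-binding leucine-rich repeat (NBS-LRR) class. Downstream of them act the hormones salicylate and jasmonate and transcription factors such as the WRKY family, whose members bind the W-box in promoters.

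The shoot table held an expression value for 3691 genes, of which 3376 averaged at least 1 over the 4 shoot libraries and were tested. Differences below are of log2(value + 1), 2,5-D minus water, a scale that understates differences of genes with low values. By limma 0 genes were called at an adjusted p of 0.05 (0% of 3376), while 1016 higher genes (30.1%) and 648 lower genes (19.2%) had an unadjusted p under 0.05. The smallest adjusted p, 0.0524, was shared by 633 genes, and 1071 genes had one under 0.06. The 2,5-D libraries both lay above both water libraries in 1721 genes (51.0%) and below both in 912 genes (27.0%). Below, a gene is called higher or lower where the groups did not overlap in this way, and an exact two-sided permutation test of 2 libraries against 2 cannot give a p under 0.333. A gap of at least 1 on the log2 scale from each water library was found in 155 higher genes (4.59%) and 57 lower genes (1.69%). Without water 1 limma called 1435 genes higher and 686 lower, and without water 2 it called 1620 and 860, where the lone water library is assumed to vary like the treated ones.

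The table lists its genes in 2 runs, each sorted by locus. In the first run, of 1339 genes, the shoot groups overlapped in 1 gene and the root groups in 630. In the second run, of 2352 genes, the shoot groups overlapped in 897 genes and the root groups in 5. No source used here gives the authors' rule for listing genes. Genes of the first run were therefore treated as picked on these same shoot libraries, and their counts and p-values only describe the list. Genes of the second run were likewise treated as picked on the root libraries, so their root counts only describe the list. Among tested genes the first run held 729 higher (55.7%) and 579 lower (44.2%), and the second held 992 higher (48.0%) and 333 lower (16.1%). An unadjusted p under 0.05 by limma was found in 728 higher and 567 lower genes of the 1309 tested in the first run. In the second run it was found in 288 higher and 81 lower genes of 2067. The adjustment of p-values was made over both runs together. The median difference over all tested genes was 0.37, and bringing the libraries to equal medians shifted every difference by -0.40. With that scaling 1087 of the 3376 genes were higher and 1385 lower, which is the background wherever equal medians are named below. Positive differences of up to about the size of that shift thus have no settled direction, while negative ones kept their sign.

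The water libraries stood further apart than the 2,5-D libraries. Across tested genes Pearson's r on the log2 scale was 0.994 between the 2,5-D libraries and 0.930 between the water libraries. Both 2,5-D libraries were nearer to water 2 (r = 0.953 and 0.960) than to water 1 (r = 0.860 and 0.883), where genes are not independent replicates. Water 2 was over 2-fold above water 1 in 468 genes, 454 of them in the second run, and over 2-fold below it in 83, while the 2,5-D libraries were that far apart in 11. In the 468 genes the 2,5-D mean lay above water 1 by a median of 2.10 and above water 2 by 0.41. The sign of the difference turned with the water library in 489 genes, 0 of them in the first run. The sign cannot turn where the groups do not overlap, and the first run held only 1 tested gene with overlap. Its 0 thus follows from which genes the run holds. Because the water libraries differ, each group of genes is given against each of them.

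**Figure D1:**
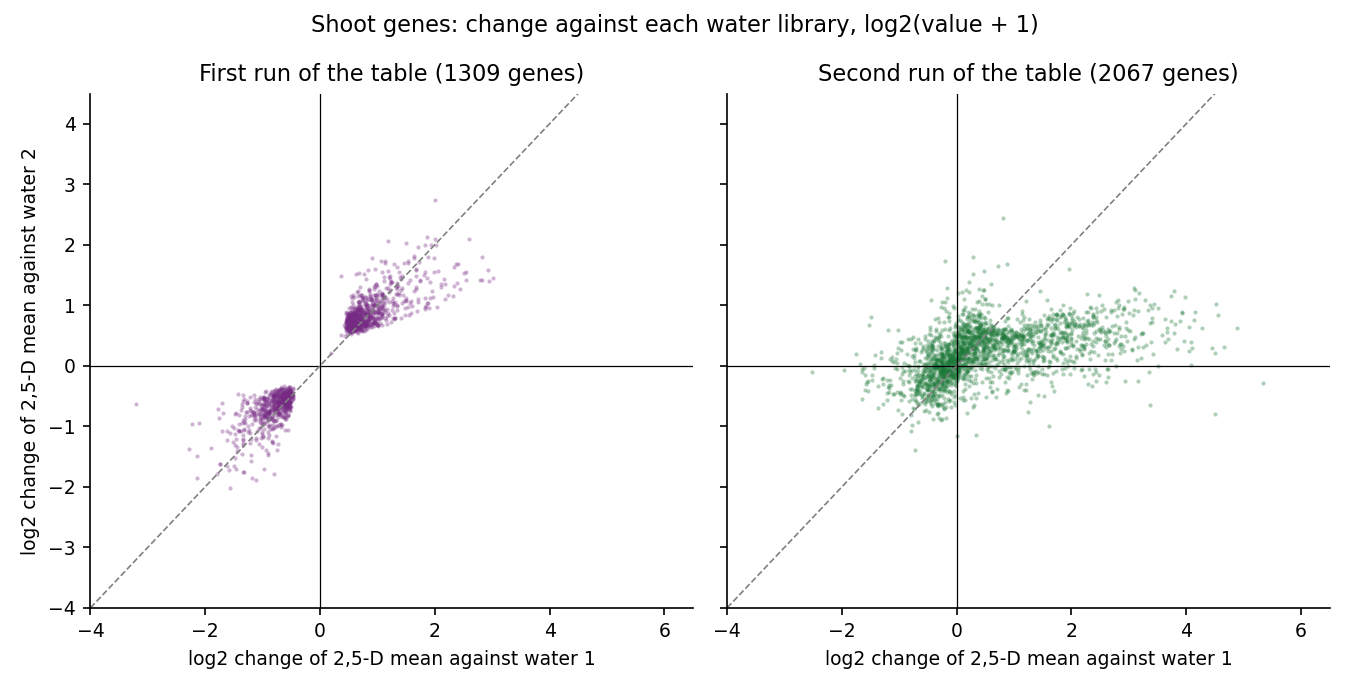
Log2 difference of the 2,5-D mean against water 1 (x axis) and against water 2 (y axis) for each tested shoot gene, in the first run of the table (left, 1309 genes) and in the second (right, 2067 genes). Genes of the first run lie near the line where both differences are equal, while many genes of the second run lie far above water 1 and close to water 2. The first run was treated as picked on these libraries, so this contrast only describes the list.

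The genes furthest above both water libraries included several known from immunity. FRK1 (AT2G19190), a receptor-like kinase gene that the bacterial peptide flg22 induces, had 14.51 and 9.06 in 2,5-D, against 2.06 and 2.12 in water. Its log2 difference was 2.02 (SE 0.25, adjusted p = 0.0524 by limma). WAK3 (AT1G21240), a wall-associated receptor kinase, was at 30.89 and 28.18 in the treated libraries and at 7.33 and 5.97 in the water libraries. In both genes the water libraries were close to each other. That they lay well below the treated ones was required by the choice of genes. EDS5 (AT4G39030), the transporter that exports a salicylate precursor from the chloroplast, had 50.8 and 38.41 in 2,5-D, against 12.71 and 12.81 in water. Its difference was 1.72 (SE 0.19). The promoters of these genes, and that of STOMAGEN from among the lower genes, are shown because the number of W-boxes, TTGAC on either strand, differs between them. FRK1 holds 3, WAK3 2, EDS5 2 and STOMAGEN 0. Other genes went the other way, since TPS04 among the 15 highest holds 0 and AT3G06145 among the 15 lowest holds 2. A W-box was found in 11 of the 15 highest genes and in 6 of the 15 lowest. Shown are the 250 bases before the gene start in RefSeq's TAIR10.1 assembly, 5′ to 3′ along the gene, with each W-box in capitals (TTGAC, or GTCAA where it lies on the other strand). The 4 promoters shown were chosen after the values of their genes were seen. They lie at chr2:8329945-8330194 on the minus strand (FRK1), chr1:7433985-7434234 on the plus strand (WAK3), chr4:18185187-18185436 on the plus strand (EDS5) and chr4:7587100-7587349 on the minus strand (STOMAGEN).
FRK1: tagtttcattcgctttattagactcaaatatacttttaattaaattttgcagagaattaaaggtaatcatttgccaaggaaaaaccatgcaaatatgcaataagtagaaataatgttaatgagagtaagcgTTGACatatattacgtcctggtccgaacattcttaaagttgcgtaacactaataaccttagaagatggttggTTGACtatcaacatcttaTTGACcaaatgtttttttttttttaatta
WAK3: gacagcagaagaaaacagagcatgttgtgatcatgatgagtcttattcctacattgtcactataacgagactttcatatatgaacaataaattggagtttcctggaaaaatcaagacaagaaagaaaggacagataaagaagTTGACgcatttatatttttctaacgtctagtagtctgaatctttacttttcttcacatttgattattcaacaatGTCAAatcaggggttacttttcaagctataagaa
EDS5: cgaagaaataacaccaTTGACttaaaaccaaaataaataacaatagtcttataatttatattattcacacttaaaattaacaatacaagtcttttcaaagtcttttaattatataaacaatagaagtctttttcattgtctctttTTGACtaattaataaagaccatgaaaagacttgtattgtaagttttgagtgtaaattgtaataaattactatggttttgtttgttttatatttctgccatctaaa
STOMAGEN: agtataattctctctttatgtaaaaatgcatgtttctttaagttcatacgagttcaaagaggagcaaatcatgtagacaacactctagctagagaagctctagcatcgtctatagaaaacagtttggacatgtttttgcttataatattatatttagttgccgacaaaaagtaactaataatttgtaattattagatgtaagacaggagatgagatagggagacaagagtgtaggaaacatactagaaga

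A pair of enzymes of 1 route to a leaf volatile stood high. TPS04 (AT1G61120), the terpene synthase that makes geranyllinalool, had 35.56 and 23.07 in 2,5-D, against 6.43 and 3.42 in water, a difference of 2.37 (SE 0.37). CYP82G1 (AT3G25180), the cytochrome P450 that turns geranyllinalool into the volatile homoterpene TMTT, was at 16.38 and 13.25 in the treated libraries and at 1.08 and 4.27 in the water libraries, a difference of 2.25 (SE 0.51). Neither gene's groups overlapped, which the choice of genes required, though water 2 was above water 1 for CYP82G1. CYP76C6 (AT1G33720), another P450, had 14.5 and 27.16 in 2,5-D, against 1.95 and 4.99 in water. ABCC11 (AT1G30420), of the ABC transporter class, was at 12.28 and 10.27 in the treated libraries and at 2.06 and 1.87 in the water libraries. The leucine-rich repeat kinase gene AT1G35710 had 75.81 and 73.9 in 2,5-D, against 20.38 and 18 in water, with its libraries tightly paired in each group. The methyltransferase gene AT3G54150 was at 212.47 and 176.28 in the treated libraries and at 36.66 and 59.27 in the water libraries. The remaining genes of the 15 highest were AT2G17740 (a C1 domain protein), AT2G15042 (a leucine-rich repeat protein), AT1G51270 (a vesicle-associated protein), AT4G11170 (an NBS-LRR receptor), AT3G57460 (a metalloendopeptidase by its RefSeq name), AT1G73510 and AT1G20390. Over these 15 the differences ran from 1.71 for AT1G20390 to 2.37 for TPS04.

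The genes furthest below both water libraries included regulators of growth and transporters. CIB1 (AT4G34530), a basic helix-loop-helix factor that binds the blue-light receptor cryptochrome, had 1.61 and 0.81 in 2,5-D, against 8.58 and 6.84 in water. Its log2 difference was -2.0 (SE 0.25, adjusted p = 0.0524 by limma). BEE3 (AT1G73830), a factor of the same class that brassinosteroids induce, was at 9.78 and 9.44 in the treated libraries and at 30.5 and 42.09 in the water libraries. STM (AT1G62360), the homeobox factor that maintains the shoot meristem, had 4.29 and 2.77 in 2,5-D, against 11.16 and 10.89 in water. STOMAGEN (AT4G12970), a secreted peptide of the leaf mesophyll that raises stomatal density, was at 7.5 and 7.63 in the treated libraries and at 21.07 and 22.57 in the water libraries. In all 4 genes neither treated library came near a water library, which the choice of genes required. NAS1 (AT5G04950), which makes the metal chelator nicotianamine, had 9.72 and 7.84 in 2,5-D, against 31.69 and 29.01 in water. SAG29 (AT5G13170), the sugar exporter also called SWEET15, was at 0.75 and 0.74 in the treated libraries and at 7.48 and 3.53 in the water libraries. UMAMIT36 (AT1G70260), of an amino acid transporter family, had 2.04 and 1.07 in 2,5-D, against 7.75 and 7.62 in water. The water libraries were near each other in NAS1 and UMAMIT36 but not in SAG29. The rest of the 15 lowest were MIF3 (a mini zinc finger), AT2G43550 (a knottin-type peptide), AT3G06145 (a RING finger protein), AT3G27027, AT4G33666, AT5G05250, AT1G68238 and AT5G35480. These differences ran from -2.0 for CIB1 to -1.41 for STOMAGEN. All 30 of these highest and lowest genes lie in the first run of the table, and their adjusted p was 0.0524, or 0.0527 for CYP76C6.

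**Figure D2:**
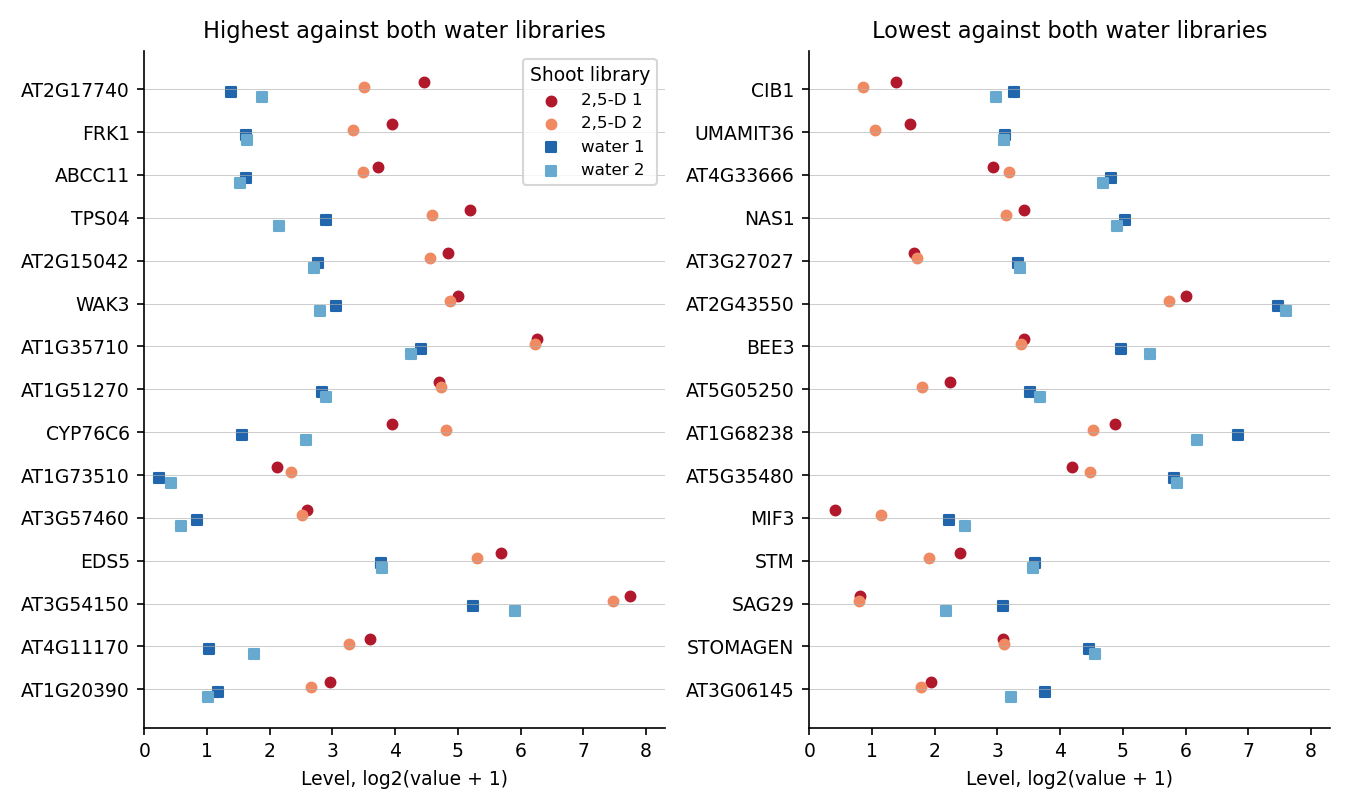
Level, as log2(value + 1), of the 15 highest (left) and 15 lowest genes (right) in each shoot library, circles for 2,5-D and squares for water. In each gene both circles stand apart from both squares, which the choice of genes required.

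Of 45 tested NBS-LRR and TIR genes, receptors that recognise pathogen molecules inside the cell, 44 were higher and 0 lower. Their median difference was 0.86 (0.92 against water 1 and 0.84 against water 2), beside 0.37 for all tested genes. Of the list 31 lie in the first run. In the second run 13 of 14 were higher, beside 48.0% of all its genes. RPS6 (AT5G46470), a receptor for a Pseudomonas effector, had 43.1 and 34.04 in 2,5-D, against 10.71 and 13.91 in water. The TIR-domain gene AT2G20142 was at 134.86 and 114.21 in the treated libraries and at 14.53 and 44.84 in the water libraries, so that water 2 lay between water 1 and the treated libraries. RPP4 (AT4G16860), a receptor for downy mildew, had 86.74 and 72.51 in 2,5-D, against 30.07 and 33.74 in water. It belongs to a run of NBS-LRR genes on chromosome 4 with SNC1, RPP5, AT4G16900 and AT4G16960, picked out after the values were seen, of which 5 of 5 were higher (median 0.95). These neighbours are close copies among which reads could be split, so they do not count as independent. With equal medians 36 of the list were higher and 1 lower.

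Among 106 tested receptor-like kinases, which sense molecules outside the cell, 76 were higher and 12 lower, beside 51.0% and 27.0% of all tested genes. The median was 0.80 (0.87 against water 1 and 0.69 against water 2), and 49 of the genes lie in the first run. The 12 lower ones all lie in the second run. There 27 of 57 were higher and 12 lower, beside 48.0% and 16.1% of all its genes, so the share higher lay near its background. The larger share higher in the whole list thus rests on the first run, treated as picked on these libraries. Differences of the lower genes were small, as for RLK902 with 7.35 and 8.23 in 2,5-D, against 10.06 and 9.78 in water (-0.31). SERK4 (AT2G13790), a coreceptor of immune receptors, had 124.01 and 102.42 in 2,5-D, against 27.83 and 37.91 in water. IOS1 (AT1G51800), a malectin-like receptor kinase, was at 96.83 and 85.64 in the treated libraries and at 27.73 and 29.89 in the water libraries. In both genes the groups were far apart relative to the gap within each. A run of 12 cysteine-rich receptor kinases on chromosome 4, picked out after the values were seen, was higher in 12 of 12, with differences from 1.06 to 1.99. Of this run CRK19 (AT4G23270) had 93.5 and 85.38 in 2,5-D, against 28.18 and 37.54 in water. CRK20 (AT4G23280) was near nothing in water, with 6.12 and 3.34 in 2,5-D, against 0.1 and 0.8 in water. These genes, too, are near copies among which reads could be split. With equal medians 58 receptor-like kinases were higher and 31 lower, beside 1087 and 1385 of all 3376 tested genes.

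Genes of salicylate and general immunity were higher in 14 of 14 and lower in 0, 6 of them in the first run, beside 51.0% higher among all tested genes. In the second run 8 of 8 were higher, beside 48.0%. The median was 1.18 (1.09 against water 1 and 0.84 against water 2). ALD1 (AT2G13810), which starts the synthesis of the immune signal pipecolate, had 1.54 and 3.15 in 2,5-D, against 0.58 and 0.61 in water. NPR1 (AT1G64280), the salicylate receptor, was at 47.5 and 42.11 in the treated libraries and at 28.11 and 33.74 in the water libraries. WRKY33 (AT2G38470), a regulator of camalexin, had 659.64 and 515.15 in 2,5-D, against 124.16 and 430.13 in water. Water 2 came close to the treated libraries in WRKY33 and not in ALD1. With equal medians 10 of the 14 stayed higher and 0 were lower.

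Camalexin is an indole antimicrobial, and glucosinolates are sulfur-containing defence compounds. Of 3 tryptophan and camalexin genes, all of the first run, 3 were higher (median 1.34). CYP71A13 (AT2G30770), of camalexin synthesis, had 17.27 and 24.12 in 2,5-D, against 7.71 and 5.7 in water. PAD3 (AT3G26830), which completes camalexin, was at 93.02 and 144.61 in the treated libraries and at 61.4 and 33.23 in the water libraries. ASB1 (AT1G25220), a subunit of anthranilate synthase in tryptophan synthesis, had 166.41 and 165.84 in 2,5-D, against 102.87 and 79.71 in water. The treated libraries exceeded both water libraries in each. Of 14 glucosinolate genes 4 were higher and 7 lower, beside 51.0% and 27.0% of all tested genes. Their median was -0.31 (-0.43 against water 1 and -0.18 against water 2). The higher ones were CYP79B2 and CYP79B3, which make indole-3-acetaldoxime, SOT16, a sulfotransferase that acts on indolic glucosinolates, and GGP1, which is not specific to the indole branch. CYP79B2 (AT4G39950) had 99.95 and 96.16 in 2,5-D, against 49.87 and 48.09 in water. The lower ones were IPMI1, IPMI2, BCAT4 and IMD1, of methionine chain elongation, with BAT5, CYP79F2 and FMO GS-OX3 of the same branch, and SOT17, SUR1 and CYP81F4 overlapped. This naming by branch was made after the values were seen, and no difference between branches was tested. With equal medians 2 of the list were higher and 9 lower. IPMI1 (AT3G58990) was at 18.28 and 25.56 in the treated libraries and at 55.59 and 45.81 in the water libraries. Its treated libraries were both below its water libraries by a wide margin. Of 3 sulfur genes 0 were higher and 2 lower (median -0.60). APR3 (AT4G21990), an APS reductase of sulfate assimilation, had 74.54 and 80.72 in 2,5-D, against 126.34 and 110.87 in water. Of 3 phenylpropanoid genes 3 were higher and 0 lower (median 0.65). PAL1 (AT2G37040), which opens that pathway, was at 130.53 and 128.3 in the treated libraries and at 91 and 73.96 in the water libraries. TT4, chalcone synthase, was higher by 0.28 and became -0.12 with equal medians.

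Jasmonate genes were higher in 16 of 21 and lower in 1, with a median of 0.90 (0.90 against water 1 and 0.90 against water 2). Single genes still depended on the water library. Water 2 was over 2-fold above water 1 in 9 of the 21 and over 2-fold below it in 4. All of the list but ORA59 lie in the second run, where 16 of 20 were higher, beside 48.0% of all its genes. AOC3 (AT3G25780), an allene oxide cyclase of jasmonate synthesis, had 299.22 and 257.5 in 2,5-D, against 38.61 and 129.59 in water. JAZ1 (AT1G19180), a repressor that jasmonate induces, was at 890.28 and 809.29 in the treated libraries and at 157.45 and 435.2 in the water libraries. Both lay above each water library, AOC3 by 2.81 and 1.09 and JAZ1 by 2.42 and 0.96 against water 1 and water 2. CYP94C1 (AT2G27690), which oxidises the active hormone, had 66.23 and 81.59 in 2,5-D, against 13.82 and 36.98 in water. ORA59 (AT1G06160), a factor that joins jasmonate and ethylene signals, was the lower one, with 17.76 and 15.61 in 2,5-D, against 37.1 and 29.97 in water. The groups overlapped for VSP1 (AT5G24780), a storage protein gene induced by jasmonate, which had 139.18 and 105.57 in 2,5-D, against 139.21 and 35.95 in water. With equal medians 10 jasmonate genes were higher and 1 lower.

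Genes of the rapid response to touch and wounding depended most on the water library. Of 16 tested, 0 of them in the first run, 11 were higher and 0 lower, beside 48.0% and 16.1% of all second-run genes. Their median was 1.61 against water 1 and 0.21 against water 2. With equal medians 2 were higher and 1 lower. WRKY40 (AT1G80840), a WRKY factor that many stimuli induce within minutes, had 1116.13 and 934.4 in 2,5-D, against 160.49 and 806.47 in water. RRTF1 (AT4G34410), a redox-responsive factor, was at 700.5 and 588.98 in the treated libraries and at 37.78 and 541.25 in the water libraries. CML37 (AT5G42380), a calmodulin-like calcium sensor, had 410.9 and 341.78 in 2,5-D, against 35.79 and 401.15 in water. In these genes water 2 was at or near the level of the treated libraries and water 1 stood alone. Along with RRTF1 the 10 genes whose water libraries were furthest apart were AT1G22810, AT5G52020 and DDF1 (DNA-binding proteins of the AP2 type), ZAT11 (a zinc finger), AT3G01830 (a calcium-binding protein), AT5G11140 (a phospholipase-like protein), AT5G27765, AT1G06135 and AT4G28460. AT1G22810 had 86.07 and 69.84 in 2,5-D, against 0.95 and 94.14 in water, a difference of 5.33 against water 1 and of -0.28 against water 2. Of 9 ERF and DREB factors 0 were higher and 0 lower, with a median of 0.59 against water 1 and -0.19 against water 2. For these, equal medians gave 0 higher and 3 lower (median -0.22), and removing the trend on gene length gave 5 higher and 0 lower (median 0.54). Of 25 WRKY factors 21 were higher and 1 lower, beside 51.0% and 27.0% of all tested genes. Their median was 0.60 against water 1 and 0.44 against water 2. WRKY51 (AT5G64810), which acts in salicylate and jasmonate cross-talk, was at 15.93 and 18.54 in the treated libraries and at 9.21 and 10.92 in the water libraries. WRKY12 (AT2G44745), which holds back secondary walls in stem pith, was the lower one, with 2.15 and 1.15 in 2,5-D, against 5.7 and 3.99 in water. With equal medians 5 WRKY genes were higher and 3 lower.

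**Figure D3:**
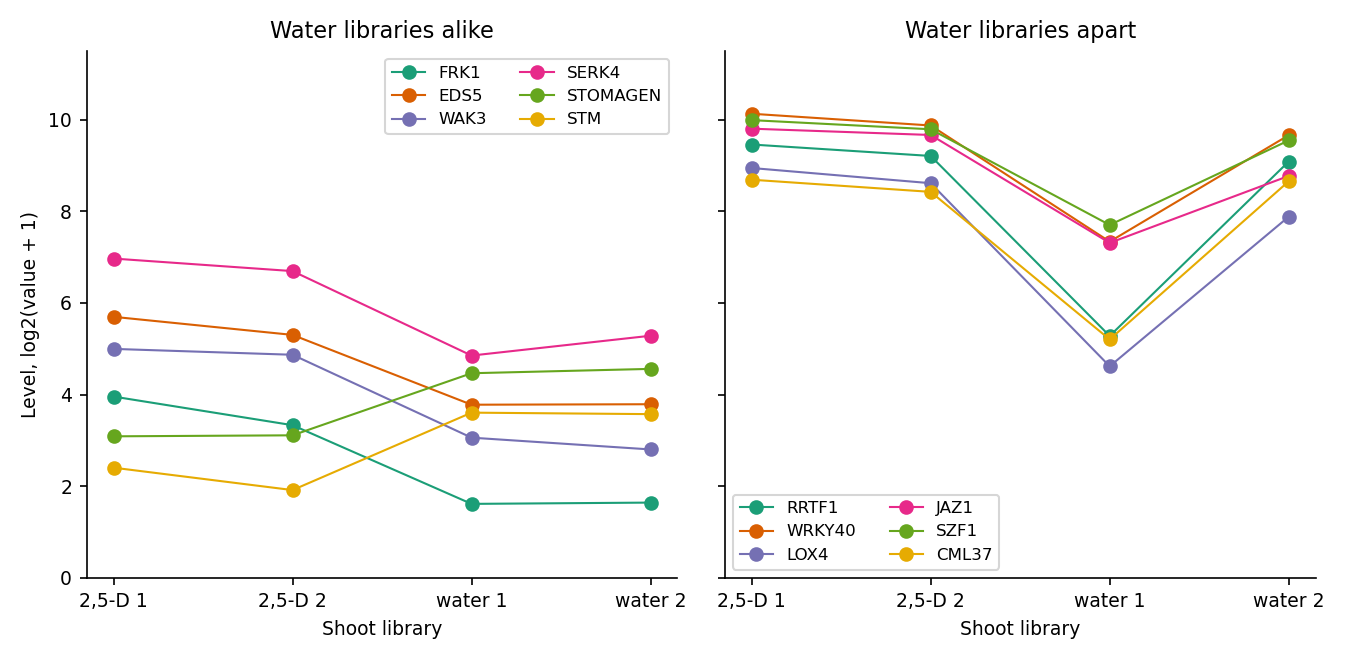
Level, as log2(value + 1), of 12 genes in each shoot library, chosen after their values were seen, with lines joining the values of a gene. On the left the water libraries are alike, as for FRK1 (2.06 and 2.12 before the log), and on the right water 2 lies above water 1, as for RRTF1 (541.25 and 37.78).

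The table held 8 of the 26 nitrate transport genes on the list. Of the 6 that were tested, 4 were higher and 0 lower, beside 51.0% and 27.0% of all tested genes. In the second run 1 of 3 was higher, beside 48.0% of all its genes. The median of the 6 was 1.08, or 1.15 against water 1 and 0.85 against water 2. SLAH3 (AT5G24030), an anion channel that passes nitrate, had 82.11 and 103.32 in 2,5-D, against 15.43 and 31.15 in water. Its difference was 2.02 (SE 0.40, adjusted p = 0.0524 by limma). NRT2.5 (AT1G12940), a high-affinity transporter of nitrogen-starved plants, was at 41.97 and 28.2 in the treated libraries and at 11.01 and 12.27 in the water libraries, a difference of 1.49 (SE 0.24). NRT1.8 (AT4G21680), which takes nitrate back out of the xylem, had 99.54 and 139.54 in 2,5-D, against 55.67 and 34.85 in water, a difference of 1.40 (SE 0.33, adjusted p = 0.0555 by limma). These 3 genes lie in the first run and stood clear of both water libraries. NRT2:1 (AT1G08090), a high-affinity uptake transporter best known from roots, was at 2.39 and 1.57 in the treated libraries and at 0.25 and 1.44 in the water libraries, and so came close to water 2 (adjusted p = 0.21 by limma). The groups overlapped for NRT1.5 (AT1G32450), a loader of xylem nitrate, with 15.22 and 10.81 in 2,5-D, against 19.01 and 13.05 in water. The same was seen for NRT1.9 (AT1G18880), a transporter of the root phloem, with 4.69 and 3.68 in 2,5-D, against 5.4 and 4.29 in water. NRT2.6 and SLAH1 averaged below 1 and were not tested. With equal medians 3 of the 6 were higher and 2 lower.

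Both ammonium transporters were higher by smaller amounts, and with equal medians neither pair of groups stayed apart. AMT1;1 (AT4G13510), a main high-affinity transporter, had 190.13 and 177.74 in 2,5-D, against 151.25 and 120.11 in water (difference 0.44). AMT2 (AT2G38290) was at 78.18 and 84.78 in the treated libraries and at 56.11 and 44.98 in the water libraries (difference 0.69). Of 5 nitrogen assimilation genes 3 were higher and 0 lower, beside 51.0% and 27.0% of all tested genes. Their median was 0.29 and became -0.11 with equal medians. NIR1 (AT2G15620), nitrite reductase, had 249.22 and 232.78 in 2,5-D, against 164.42 and 137.89 in water. ASN1 (AT3G47340), which makes asparagine, was at 48.71 and 38.18 in the treated libraries and at 31.49 and 20.81 in the water libraries. NIA2 (AT1G37130), the main nitrate reductase, had 829.23 and 841.89 in 2,5-D, against 713.98 and 650 in water, a difference of 0.29 that turned to -0.11 with equal medians.

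Most photosynthesis genes that the table held lay below water. It held 33 of 95 photosystem, antenna and Rubisco genes, of which 0 were higher and 30 lower, beside 27.0% lower among all tested genes. Their median was -0.58 (-0.61 against water 1 and -0.57 against water 2). Of the 33, 29 are in the first run, and in the second run 1 of 4 was lower, beside 16.1% of all its genes. CAB2 (AT1G29920), a chlorophyll-binding antenna protein, had 1219.87 and 1427.29 in 2,5-D, against 2417.25 and 2715.53 in water. RBCS2B (AT5G38420), a small subunit of Rubisco, was at 1818.65 and 2532.7 in the treated libraries and at 4052.34 and 3408.98 in the water libraries. Summed over the list the values were 31512 and 35352 in 2,5-D, against 53012 and 51116 in water. In such whole-organ samples fewer cells of a type and less RNA per cell cannot be told apart. The sums in root libraries were 1194 to 1641, and the shoot libraries thus match their tissue label. Summed values of 4 root markers were 4.58 and 2.53 in 2,5-D shoots and 3.37 and 4.48 in water shoots, against 130 to 183 in roots. Of these markers ESB1 was lower, with a difference of -0.23, THAS1 was higher, with 0.55, and CASP1 and CASP2 averaged below 1. Of 3 chlorophyll synthesis genes GUN4 was lower and HEMA1 higher, and HEMA1 turned to -0.13 with equal medians.

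The table held 75 of 355 genes of ribosomal proteins whose RefSeq name states no organelle. Of these 74 were lower and 1 higher, beside 27.0% and 51.0% of all tested genes. Their median was -0.59 (-0.59 against water 1 and -0.58 against water 2). In the first run lie 72, and in the second run 2 of 3 were lower. AT3G11120, of the L41 family, had 213.68 and 224.99 in 2,5-D, against 438.75 and 495.81 in water. RPL18AA (AT1G29970) was the higher one, with 59.51 and 54.05 in 2,5-D, against 38.59 and 41.7 in water. Of 20 ribosomal proteins named for an organelle the table held 6, all of the first run, and 6 of 6 were lower (median -0.69). An example is PSRP6 (AT5G17870) of the chloroplast ribosome, with 338.34 and 377.61 in 2,5-D, against 613.22 and 567.03 in water. Ribosomal and antenna genes come in close copies among which reads could be split.

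Gene length went with the direction of the difference. In 4 equal bins of 844 genes, from the shortest to the longest by exonic length, the median difference was -0.46, 0.23, 0.45 and 0.66. In the first run the higher genes had a median length of 3195 bases and the lower ones 1031 bases, and the correlation of log2 length with the difference was 0.66. In the second run these lengths were 1787 and 1659 bases and the correlation was 0.01. The correlations are across genes of the same 4 libraries and describe them only. The median length was 4224 bases for NBS-LRR genes and 2954.5 for receptor-like kinases, but 911 for ribosomal and 1134 for photosystem genes. After the trend on length was removed from each library, 1712 of all 3376 tested genes were higher and 926 lower. Of the NBS-LRR genes 36 were then higher and 1 lower (median 0.50). Receptor-like kinases were then higher in 65 and lower in 29 (median 0.56). Ribosomal genes were higher in 2 and lower in 65 (median -0.28), and photosystem genes higher in 3 and lower in 25 (median -0.39). What part length has in these differences was not tested further.

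**Figure D4:**
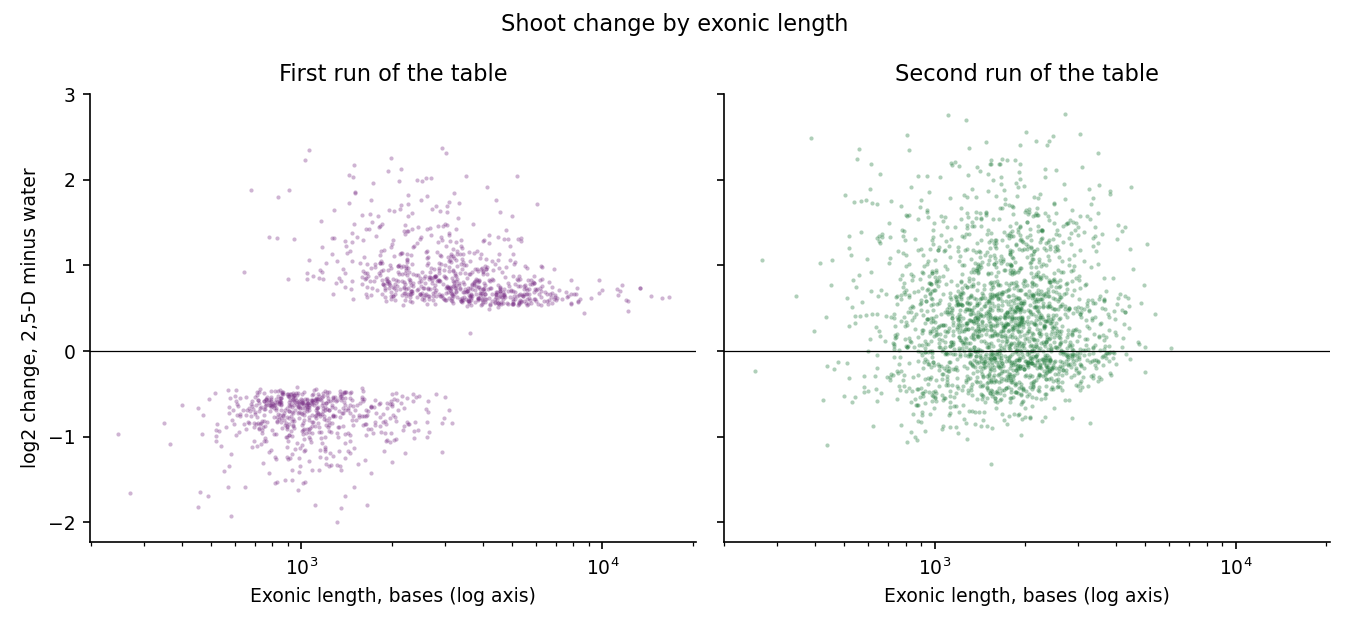
Log2 difference, 2,5-D minus water, of each tested shoot gene against its exonic length in bases on a log axis, in the first run (left) and the second run (right) of the table. In the first run the higher genes are mostly long and the lower genes mostly short, with median lengths of 3195 and 1031 bases, and the second run shows no such split.

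Lists on growth and hormones were small. They stand beside 51.0% higher and 27.0% lower among all tested genes. Expansins and XTH enzymes, which loosen cell walls, were higher in 3 and lower in 7 of 10 (median -0.44). EXPA11 (AT1G20190) had 5.45 and 6.92 in 2,5-D, against 18.67 and 15.62 in water. EXLA3 (AT3G45960) went the other way, with 29.85 and 23.71 in 2,5-D, against 3.29 and 13.61 in water. Of 6 aquaporins 1 were higher and 5 lower (median -0.40). NIP6;1 (AT1G80760), a boron channel of young shoots, was at 10.56 and 8.23 in the treated libraries and at 23.06 and 24.13 in the water libraries. Of 5 cytokinin genes 1 were higher and 3 lower (median -0.72). ARR9 (AT3G57040), a response regulator, had 4.08 and 3.37 in 2,5-D, against 9.41 and 6.98 in water. CKX5 (AT1G75450), which breaks cytokinin down, was the higher one, with 15.02 and 9.8 in 2,5-D, against 2.76 and 3.64 in water. Of 3 auxin response genes IAA14 was higher and ATAUX2-11 lower, and IAA14 turned to -0.017 with equal medians. Of 11 ethylene genes 2 were higher and 3 lower, with a median of 0.59 against water 1 and -0.26 against water 2. EBF2 (AT5G25350), an F-box protein that removes the ethylene factor EIN3, was at 31.8 and 48.08 in the treated libraries and at 95.2 and 84.78 in the water libraries. The higher ones were ACS2 and ACS8, of ethylene synthesis.

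Among all tested genes 51.0% were higher and 27.0% lower, the background for each list of this paragraph except where equal medians are named. Of 7 iron genes 3 were higher and 4 lower (median -0.80). The lower ones were NAS1, NAS4, AT1G47395 and AT2G30766, and the higher ones FRO3, FER3 and PYE. FRO3 (AT1G23020), a ferric reductase, had 43.68 and 36.99 in 2,5-D, against 20.65 and 22.58 in water. Phosphate starvation genes were higher in 7 of 8 (median 0.44) and in 1 with equal medians. PHO1;H1 (AT1G68740), a phosphate exporter, was at 21.54 and 24.53 in the treated libraries and at 15.27 and 11.41 in the water libraries. Of 8 sugar genes 4 were higher, a share near that background, and 1 lower, with a median of 0.12 that became -0.28 with equal medians. GPT2 (AT1G61800), which carries glucose phosphate into plastids, had 114.77 and 108.23 in 2,5-D, against 43.42 and 55.29 in water. SUC2 (AT1G22710), which loads sucrose into the phloem, was at 109.57 and 113.91 in the treated libraries and at 70.57 and 69.08 in the water libraries. Of 8 senescence genes 5 were higher and 1 lower, with a median of 0.33 that became -0.07 with equal medians. NAC6 (AT5G39610), a promoter of leaf ageing also called ORE1, was the lower one, with 8.96 and 7.52 in 2,5-D, against 22.38 and 21.86 in water. Of 13 NAC factors 8 were higher and 2 lower (median 0.59), but 5 and 5 with equal medians (median 0.19). ANAC087 (AT5G18270) had 19.99 and 19.93 in 2,5-D, against 9.53 and 10.49 in water. Of 3 clock genes 2 were higher and 0 lower (median 0.60), the higher ones being PRR7 and BOA.

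Genes that handle foreign chemicals were mixed. Of 24 xenobiotic detoxification genes 12 were higher and 2 lower, with a median of 0.35 that became -0.05 with equal medians. Over all tested genes 51.0% were higher, 27.0% were lower and the median was 0.37. The share higher thus lay near the background, and the share lower, 8.33%, lay under it. In the second run 11 of 22 were higher and 1 lower, beside 48.0% and 16.1% of all its genes. GSTU20 (AT1G78370), a glutathione transferase, had 187.81 and 240.87 in 2,5-D, against 610.07 and 511.31 in water. GSTU9 (AT5G62480), of the same family, was at 18.54 and 14.6 in the treated libraries and at 4.75 and 8.83 in the water libraries. Of 22 glutathione transferases 7 were higher and 4 lower (median 0.08, and -0.33 with equal medians). Of 41 cytochromes P450 20 were higher and 10 lower (median 0.36, and -0.04 with equal medians), shares near the 51.0% and 27.0% of all tested genes. With equal medians the counts of P450 genes were 14 and 14, beside 1087 and 1385 of all 3376 tested genes. The lower ones included CYP71B2, CYP71B4, CYP71B11, CYP71B12 and CYP71B13, of which CYP71B13 (AT5G25140) had 1.59 and 1.96 in 2,5-D, against 4.78 and 4.67 in water. Of 18 UDP-glycosyltransferases 8 were higher and 5 lower (median 0.10, and -0.30 with equal medians). These shares, 44.4% and 27.8%, are near those of all tested genes. UGT89B1 (AT1G73880) was at 11.42 and 10.93 in the treated libraries and at 5.09 and 7.45 in the water libraries.

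Abiotic stress lists differed in the water library they leaned on. Their tested genes all lie in the second run, where 48.0% of all genes were higher and 16.1% lower. Of 12 abscisic acid, cold and drought genes 8 were higher and 0 lower (median 0.70 against water 1 and 0.35 against water 2), and with equal medians 3 were higher and 3 lower. DREB1A (AT4G25480), a cold response factor, had 8.55 and 6.1 in 2,5-D, against 2.99 and 3.81 in water. Of 6 hypoxia genes 5 were higher and 0 lower (median 0.33 against water 1 and 1.24 against water 2), and with equal medians 1 was higher and 0 lower. SUS4 (AT3G43190), a sucrose synthase of low oxygen, was at 18.67 and 13.88 in the treated libraries and at 11.51 and 6.14 in the water libraries. Of 24 heat shock genes 2 were higher and 8 lower (median -0.82 against water 1 and 0.04 against water 2). HSFA7A (AT3G51910), a heat shock factor, had 3.31 and 3 in 2,5-D, against 5.05 and 5.91 in water. HSF4 (AT4G36990), a factor of another class, was above both water libraries, with 115.4 and 103.1 in 2,5-D, against 46.02 and 68.22 in water.

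**Figure D5:**
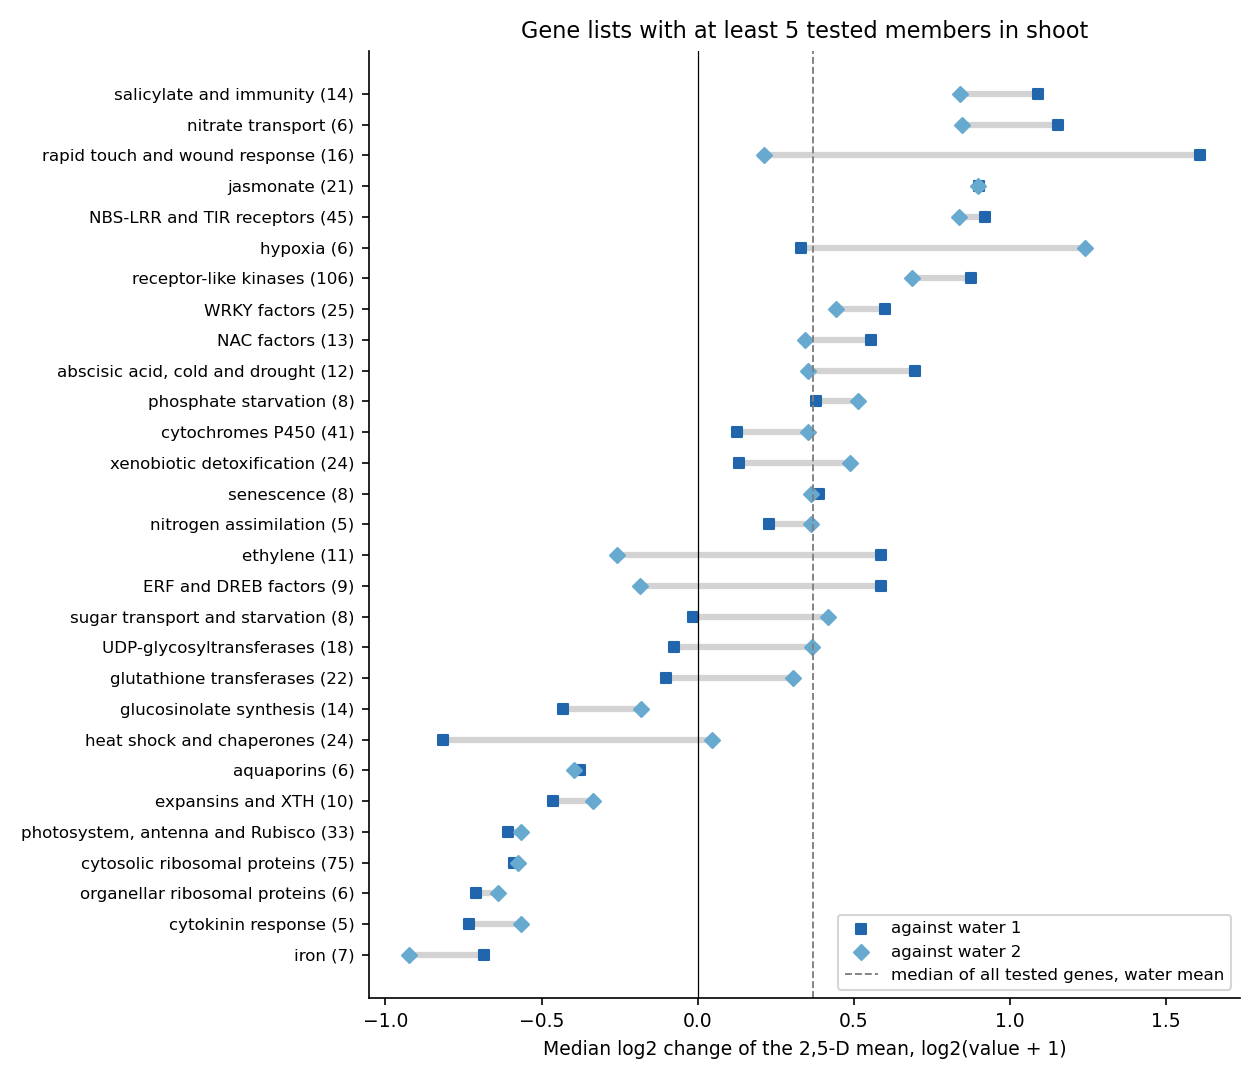
Median log2 difference of the 2,5-D mean against water 1 (squares) and water 2 (diamonds) for each gene list with at least 5 tested shoot genes, the number tested in brackets, with a dashed line at 0.37, the median of all tested genes. Receptor, salicylate and jasmonate lists lie right of the line against both water libraries, ribosome and photosystem lists lie left of 0 against both, and the touch list lies at 1.61 and 0.21.

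The shoot difference was set against the root difference with the interaction term of limma over all 8 libraries. Among 3215 genes tested in both tissues it lay above the root difference in 683 (21.2%) and below it in 253 (7.87%) at an adjusted p of 0.05. These calls rest on most single libraries: without 1 of the 2,5-D shoot libraries or any 1 root library the counts were 0 above and 0 to 2 below. Without water 1 of the shoot they were 865 and 473, and without water 2 they were 1197 and 505. With equal medians 65 genes were called above and 227 below. NBS-LRR genes were called above in 24 of 43, and receptor-like kinases above in 44 and below in 2 of 90. Of all genes of the first run 460 of 1153 were called above, and of the second run 223 of 2062. The first run, treated as picked on the shoot libraries, holds 31 of 45 tested NBS-LRR genes and 49 of 106 tested receptor-like kinases. Both lists hold long genes. Across tested genes the correlation of log2 length with the difference was 0.35 in shoots and -0.18 in roots. No interaction was fitted with the length trend removed. CYP79B2, higher in shoots, had 136.91 and 147.78 in 2,5-D roots, against 225.34 and 213.9 in water roots. Its shoot minus root difference was 1.61 (SE 0.19, adjusted p = 0.0169 by limma). Heat shock genes were called below in 18 of 24, and in roots 24 of 24 were higher in 2,5-D (median 1.83). All 24 lie in the second run, treated as picked on the root libraries, so the root count only describes the list. Of all tested genes of that run 1543 of 2067 were higher in roots (median 0.51), and 203 of 2062 were called below. HSP21 (AT4G27670), a small heat shock protein of the chloroplast, had 1.84 and 0.65 in 2,5-D, against 3.53 and 1.01 in water in shoots. In roots it had 17.3 and 10.58 in 2,5-D, against 0 and 0.26 in water. Xenobiotic genes were called below in 10 of 24.

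W-boxes were found in the 250 bases before the start of 50.5% of the 3376 tested genes. The share was 54.9% for higher and 40.9% for lower genes of the first run, and 58.4% for higher and 38.4% for lower genes of the second run. In the 468 genes whose water 2 was over 2-fold above water 1 it was 63.5%. Of the 15 highest genes 11 held a W-box (73.3%), and of the 15 lowest 6 did (40.0%). The other motifs, searched on both strands, were the heat shock element GAANNTTC (4 of the 15 highest, 1 of the 15 lowest and 11.2% of all tested), the TGA site TGACG (2, 3 and 22.3%), the G-box CACGTG (1, 2 and 8.71%) and the evening element AAATATCT (0, 1 and 5.33%). A TGA site overlaps a W-box in TTGACG. These matches are letters in a window and not sites of binding.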

How the data were processed

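RNA-seq libraries of shoots and roots were compared within the shoot table, with the root table used only for the interaction and the root values. The authors deposited 1 table per organ with a value per gene and library. Its unit is not stated and was treated as a normalized expression signal as deposited, not as counts, so depth is unknown and no counting interval is given. Alignment software is listed as HISAT2 2.0.4, per the submitters' processing notes. Build, annotation, counting and normalization: not given in the sources used here. Both treated shoot columns carry the same heading, so replicates 1 and 2 of 2,5-D are names in column order only.

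Genes averaging at least 1 over the 4 shoot libraries were tested on log2(value + 1) with limma 3.58.1 (trend) in R 4.3.3, with p-values adjusted by Benjamini-Hochberg over all tested genes. Locus names, symbols, exonic lengths and promoters came from RefSeq's TAIR10.1, where all 3691 loci matched. Members and lists were chosen with earlier results of these data known. Named genes were the 15 highest and 15 lowest by the smaller difference from either water library, up to 4 per list by the same measure (37 lists), all tested nitrate and ammonium transporters, the 8 highest and 8 lowest interactions, and the 10 genes with the widest water gap. Other genes named in a list were chosen after their values were seen. Alternatives were a pseudocount of 0.1, no filter, a mean of at least 5, equal medians, removal of the length trend, array weights, all 8 libraries in 1 fit, and leaving out each library.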

Additional observations from a re-analysis of the deposited data

Results flagged for a closer look

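In 16 genes the shoot difference departed from the root difference by the interaction term of limma, the 8 highest and 8 lowest of those called, with adjusted p between 0.0169 and 0.0402. Shoot minus root differences were 2.18 for RLP12, a receptor-like protein, 2.14 for AT3G03030 (an F-box type protein), 2.08 for IGMT3, a methyltransferase, and 2.07 for EXPA14, an expansin. They were 2.03 for AT3G56790 (a splicing factor-like protein), 2.03 for AT4G16563 (an aspartyl protease), 2.01 for AT1G26420 (of the berberine bridge enzyme class) and 1.97 for TPPH, a trehalose phosphatase. EXPA14 had 1.13 and 1.98 in 2,5-D shoots, against 1.11 and 1.01 in water shoots, and 12.63 and 16.79 in 2,5-D roots, against 48.87 and 56.24 in water roots. Its shoot values were low and close together, while its root groups stood far apart.

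On the other side the differences were -4.18 for HSP21, -3.84 for AT1G53540, -3.77 for HSP17.6II, -3.73 for ATHSP22.0, -3.37 for HSP17.4, -3.37 for AT5G37670 and -3.32 for AT1G59860, all small heat shock proteins, and -3.64 for AT4G28290. In the 7 heat shock genes the 2,5-D roots stood above the water roots. All 16 lost the call without any 1 root library or without 2,5-D shoot library 1, and 15 of 16 did without 2,5-D shoot library 2. The call was also lost in 4 with equal medians and in 2 with a pseudocount of 0.1.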

How the results depend on the processing

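No paired analysis was possible because both 2,5-D shoot columns carry the same replicate number. With equal medians limma called 62 genes higher and 483 lower, and with all 8 libraries in 1 fit 1114 and 601; the cause was not tested. Leaving out 1 shoot library gave 0 to 1620 genes higher and 0 to 860 lower, the calls coming without water 1 (1435 and 686) or without water 2 (1620 and 860), where fewer libraries set the spread. Genes without overlap numbered 1087 higher and 1385 lower with equal medians. Genes at least 1 from each water library numbered 47 higher and 290 lower with equal medians, 92 lower with a pseudocount of 0.1 and 30 lower without the length trend. Leaving out 1 library gave 129 to 776 higher (262 without water 1, 776 without water 2) and 62 to 191 lower (86 without water 1, 191 without water 2). Interactions called above numbered 65 with equal medians and 0 to 1197 with 1 library left out. Those called below numbered 153 at a mean of at least 5 and 0 to 505 with 1 library left out. With equal medians 5 of the 147 shoot differences recomputed changed sign: NIA2 to -0.11, HEMA1 to -0.13, SWEET11 to -0.10, IAA14 to -0.017 and TT4 to -0.12. The depth of the libraries is unknown, so how firmly low values are measured cannot be stated.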
